A study of Ovis aries with 2 samples.

Results

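The cells described here are KRT15-high epithelial cells of lamb skin in which no LGR5 transcript was counted. A cell was taken when KRT15 reached at least 50 CP10K (UMIs per 10000 UMIs of that cell, where a UMI marks 1 captured RNA molecule), LGR5 was at 0, at least 2 of SFRP1, PPP2R2B and FIBIN had a UMI, and KRT6A stayed under 20 CP10K. These rules kept 312 of 14037 cells, 156 in the straight wool and 156 in the curly wool library, and they are called gated cells below. The rules used measured values, so the levels of KRT15, LGR5, SFRP1, PPP2R2B, FIBIN and KRT6A describe the choice and are not results.

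The skin came from the body side of Hu sheep lambs of 3 days, selected for straight or for curly (waved) wool. Tissue of 3 lambs was pooled for either wool type and went into 1 droplet library (10x Genomics). Each library mixed cells from isolated hair follicles with cells from whole skin, so the share of any cell type also depends on that mixing. With 1 library per wool type the variation among lambs is unknown, and groups of cells chosen by their own expression are no test of each other, so no test was run and each interval in parentheses is a 95% interval that covers counting error only.

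In skin, the keratin KRT15 is characteristic of basal cells of the hair follicle bulge, the niche in the outer root sheath where follicle stem cells rest between rounds of hair growth. WNT signals start these cells on a new round of growth, while BMP signals and secreted WNT inhibitors such as SFRP1 are known to hold them at rest. LGR5, a receptor for R-spondins that strengthens WNT signalling, marks follicle stem cells of the lower bulge and the outer root sheath. Basal cells of the epidermis share KRT5 and KRT14 with the follicle stem cells, and move upwards into KRT1 and KRT10 positive layers. The paper states that sheep follicles lack a bulge structure, so what is said here of bulge cells does not place the gated cells in a bulge.

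Gated cells made up 2.42% (2.06 to 2.82) of the straight and 2.06% (1.75 to 2.40) of the curly library. In straight cells, 1012 passed the KRT15 limit, 783 of these had no LGR5 UMI, 157 also had at least 2 of the 3 genes, and the KRT6A limit removed 1 more. In curly cells these numbers were 989, 604 and 157, and again 1 cell was lost to KRT6A. The gated cells held 1454532 UMIs in straight and 1073021 UMIs in curly skin, with medians of 9422 and 6803 UMIs per cell and lows of 505 and 563. Over whole libraries the medians were 7373.5 and 7495 UMIs, so gated cells lay above their library in straight and below it in curly skin. A barcode that occurred in both libraries was carried by 3 of the gated cells.

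The KRT15 limit passed through a continuous distribution. The lowest KRT15 value inside the gate was 50.2 CP10K in straight and 50.1 CP10K in curly cells, and the highest value of a cell left out for KRT15 alone was 49.8 and 48.8 CP10K. KRT15 had a median of 100.5 CP10K (quartiles 69.8 and 138, highest 330) in straight and 103 CP10K (quartiles 74.9 and 142, highest 333) in curly gated cells. The highest KRT6A value inside was 10.7 and 17.7 CP10K, and the cell left out for KRT6A stood at 35.8 and 38.5 CP10K. SFRP1, a secreted WNT inhibitor, had a UMI in 154 straight and 153 curly gated cells, while PPP2R2B, a regulatory subunit of protein phosphatase 2A, had one in 105 and 105 and FIBIN, a secreted factor, in 90 and 101. All 3 genes were present in 37 straight and 47 curly cells.

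LGR5 itself was thinly counted in this tissue. Cells that met the same rules but had an LGR5 UMI, called LGR5-positive counterparts, numbered 118 in straight and 259 in curly skin, and 51.7% and 41.7% of them had exactly 1 LGR5 UMI. Among cells with high KRT15 and at least 2 of the 3 genes, those without LGR5 made up 56.9% in straight and 37.6% in curly skin. This share was highest in the deepest cells. It was 51.7% below 5000 UMIs, 47.2% from 5000 to 10000 and 74.7% above 10000 UMIs in straight cells, and 42.1%, 33.6% and 56.8% in curly cells. How many gated cells held LGR5 RNA that was not captured was not tested.

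Gated cells were set beside 3 groups of the same library. The LGR5-positive counterparts differ by rule in LGR5 only. KRT15-high cells outside the gate, 625 in straight and 443 in curly skin, also lacked LGR5 but had fewer than 2 of the 3 genes. KRT15-low basal cells, 503 and 575, had KRT14 at 50 CP10K or more, KRT15 below 50 CP10K, none of LGR5 and the 3 genes, and KRT6A and KRT1 under 20 CP10K. Levels are a gene's UMIs over all cells of a group in 1 library, per 1000000 UMIs of that group (CPM). A gene with at least 100 UMIs in the groups compared was tested, and it was called when the CPM differed at least 2-fold in the same direction in both libraries. A gene with few UMIs in 1 group passed this minimum through the other group, so its call could go in 1 direction only. Unless a comparison is named, ratios are log2 of the gated CPM over the CPM of the other group.

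GEM, the marker that the rules did not use, was higher in gated cells than in KRT15-low basal cells. GEM, a small GTPase that binds calcium channel subunits, lay at 127 CPM (109.5 to 147) in straight and 204 CPM (178 to 233) in curly gated cells. It reached 95.5 and 174 CPM in straight and curly LGR5-positive counterparts, 33.2 and 34.2 CPM in KRT15-high cells outside the gate, 10.3 and 20.4 CPM in KRT15-low basal cells and 39.3 and 19.5 CPM in all other cells. In both libraries the gated cells were thus above the KRT15-low basal cells, with log2 ratios of 3.63 (3.16 to 4.13) in straight and 3.32 (2.94 to 3.72) in curly, and above KRT15-high cells outside, with 1.94 (1.62 to 2.26) in straight and 2.58 (2.22 to 2.95) in curly. The interval against LGR5-positive counterparts reached below 0 in curly cells, at 0.41 (0.04 to 0.80) in straight and 0.23 (-0.02 to 0.49) in curly. A GEM UMI was found in 39.7% of straight and 48.1% of curly gated cells, against 5.37% and 6.43% of KRT15-low basal cells, whose median depths were 8749 and 5486 UMIs.

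Some transcription factors of follicle stem cells were higher in gated than in KRT15-low basal cells, and none was past 2-fold against LGR5-positive cells in both libraries. Against KRT15-low basal cells, 3 of the 11 tested factors of 14 listed were called higher and 0 lower, where 3.13% of 6828 tested genes were called higher and 3.9% lower. TCF7L1, a repressor of WNT target genes that keeps bulge cells undifferentiated, had 30.2 CPM (22 to 40.6) in straight and 47.5 CPM (35.4 to 62.5) in curly gated cells, against 8.93 and 9.8 CPM in straight and curly KRT15-low basal cells. BARX2, a homeobox factor, had 162 CPM (142 to 184) in straight and 231 CPM (203 to 262) in curly gated cells, against 77.5 and 84.1 CPM. NFATC1, a factor that keeps bulge cells quiescent, had 22 CPM (15.1 to 31.1) in straight and 17.7 CPM (10.7 to 27.6) in curly gated cells, against 7.37 and 5.72 CPM. SOX9, which is needed to form and maintain the bulge, had 341 CPM (312 to 372) in straight and 404 CPM (367 to 444) in curly gated cells. Its KRT15-low basal levels were 178 and 164 CPM, and the log2 ratios of 0.94 (0.77 to 1.10) in straight and 1.30 (1.12 to 1.48) in curly straddled the 2-fold limit, so it was not called. Over the 11 tested factors the median log2 ratio was 0.74 in straight and 0.73 in curly cells, beside -0.01 and -0.07 over all tested genes.

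Against LGR5-positive counterparts, 0 of 9 tested factors were called, and their median log2 ratio was -0.37 in straight and -0.10 in curly cells. Over all 4364 genes tested in this comparison, 0.848% were called higher and 0.573% lower. SOX9 had 394 and 302 CPM in straight and curly LGR5-positive cells, and its log2 ratio changed sign between libraries, at -0.21 (-0.41 to -0.01) in straight and 0.42 (0.24 to 0.61) in curly. TP63, the master factor of stratified epithelia, had 71.5 CPM (58.4 to 86.6) in straight and 72.7 CPM (57.5 to 90.7) in curly gated cells and 92.1 and 65 CPM in the counterparts, and both intervals of its ratio include 0.

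**Figure D1:**
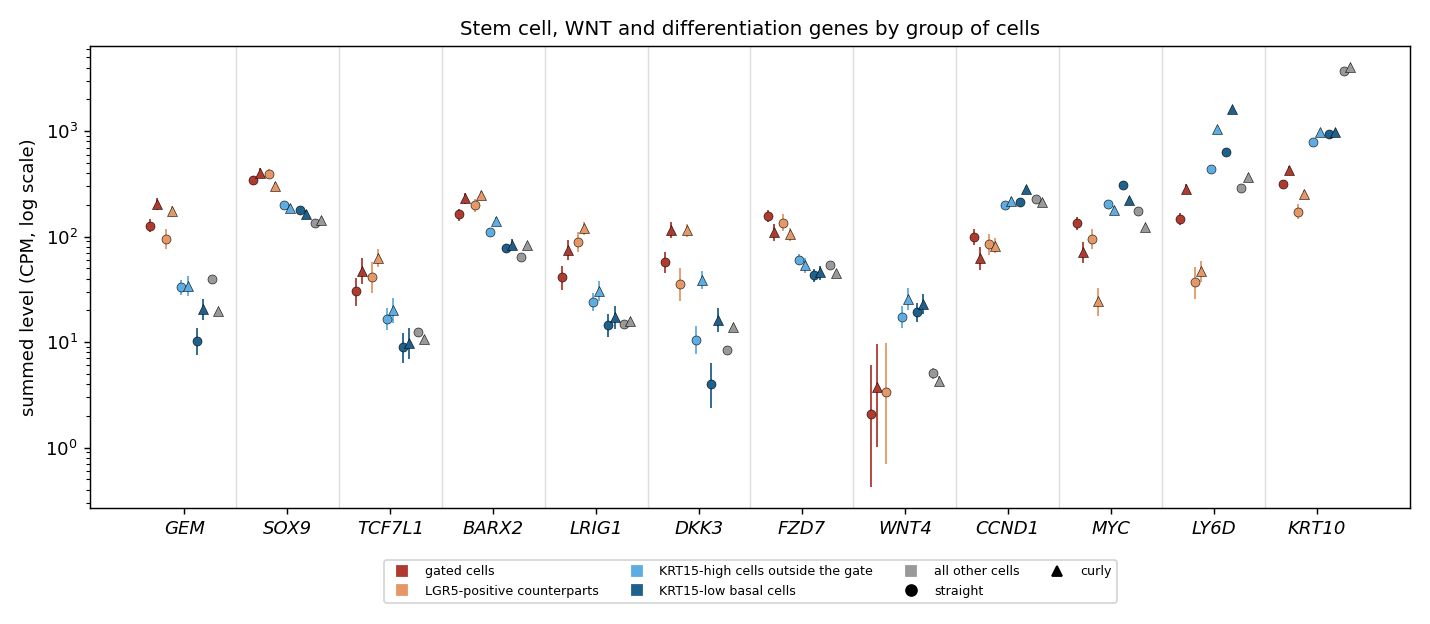
Summed level of 12 genes (CPM, log scale) in gated cells, LGR5-positive counterparts, KRT15-high cells outside the gate, KRT15-low basal cells and all other cells, with circles for the straight and triangles for the curly library. Bars are 95% Poisson intervals for counting error, and a group without a UMI of the gene has no point (WNT4 in curly LGR5-positive cells). GEM, SOX9, TCF7L1, BARX2, LRIG1, DKK3 and FZD7 lie higher in both libraries in gated and LGR5-positive cells than in KRT15-low basal cells, while CCND1, MYC, LY6D and KRT10 lie lower.

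Other follicle stem cell markers ranged from high to nearly absent. Of 13 listed, 7 were tested against KRT15-low basal cells, and 4 were called higher and 0 lower, where 3.13% of all tested genes were called higher. Against LGR5-positive counterparts 0 of 7 tested were called, and against KRT15-high cells outside the gate also 0 of 7. CXCL14, a chemokine of the skin, had 8154 CPM (8008 to 8303) in straight and 2993 CPM (2891 to 3099) in curly gated cells, against 843 and 689 CPM in straight and curly KRT15-low basal cells, a log2 ratio of 3.27 (3.22 to 3.33) in straight and 2.12 (2.04 to 2.19) in curly. POSTN, a matrix protein, had 1747 CPM (1679.7 to 1816) in straight and 915 CPM (859 to 974) in curly gated cells, against 826 and 450 CPM. The paper lists POSTN, with KRT14, as a marker of basal interfollicular epidermis. LRIG1, an inhibitor of EGF receptors that marks stem cells of the upper follicle, had 41.2 CPM (31.5 to 53.1) in straight and 75.5 CPM (59.95 to 93.8) in curly gated cells, against 14.5 and 17.1 CPM, and was higher still in LGR5-positive counterparts at 89.8 and 119.5 CPM. GAS1, a membrane protein of growth arrest and hedgehog reception, had 83.9 CPM (69.7 to 100.1) in straight and 103 CPM (85.1 to 125) in curly gated cells, against 28.4 and 38.4 CPM. CD34 and CD200, surface proteins used to isolate bulge cells in mouse and human, were at 1.38 and 1.86 CPM and 3.44 and 2.8 CPM in straight and curly gated cells, which rest on 2 and 2 UMIs and 5 and 3 UMIs.

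These genes varied between cells. CXCL14 had medians over gated cells of 56.1 and 20.2 CP10K and quartiles of 29.2 and 111 and of 12.03 and 35.1 CP10K in straight and curly skin. SOX9 had medians of 2.74 and 2.91 CP10K and BARX2 medians of 1.31 and 1.86 CP10K. GEM had a median of 0 in both libraries, and its highest cells reached 14.4 and 16.1 CP10K.

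Among secreted WNT inhibitors beyond SFRP1, gated cells were high in DKK3 and WIF1 and low in APCDD1 and DKK1. Of 14 listed, 6 were tested against KRT15-low basal cells, of which 2 were called higher and 2 lower. Over all 6828 genes tested in this comparison, 3.13% were called higher and 3.9% lower. DKK3, a divergent member of the Dickkopf family, had 57.1 CPM (45.5 to 70.7) in straight and 116 CPM (97 to 139) in curly gated cells, against 4.02 and 16.3 CPM in straight and curly KRT15-low basal cells. WIF1, which binds WNT proteins outside the cell, had 112 CPM (95.5 to 131) in straight and 38.2 CPM (27.4 to 51.8) in curly gated cells, against 13.4 and 5.17 CPM. WIF1 was also called higher than in LGR5-positive counterparts, which had 38.2 and 4.64 CPM, as the only one of 4 tested inhibitors, and 1 cell held 19.6% of its straight and 26.8% of its curly UMIs. Its level in all other cells was 243 and 33 CPM, and these cells include the dermal papilla, a known source of WIF1. SOSTDC1, an inhibitor of BMP and WNT signals, did not differ 2-fold between groups, with 241 CPM (216 to 267) in straight and 226 CPM (199 to 257) in curly gated cells and 255 and 193 CPM in KRT15-low basal cells. APCDD1, a membrane inhibitor of WNT signals, had 13.8 CPM (8.4 to 21.2) in straight and 14 CPM (7.82 to 23.1) in curly gated cells, against 35.5 and 38.9 CPM, and DKK1 rested on 4 and 2 UMIs in gated cells.

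Against KRT15-low basal cells, 4 of 5 tested WNT ligands of 13 listed were called lower and 0 higher, where 3.9% of 6828 tested genes were called lower. WNT3 had 7.56 CPM (3.77 to 13.5) in straight and 1.86 CPM (0.226 to 6.73) in curly gated cells, against 37.9 and 38.9 CPM in straight and curly KRT15-low basal cells. WNT4 had 2.06 CPM (0.425 to 6.03) in straight and 3.73 CPM (1.02 to 9.54) in curly gated cells, against 19.2 and 23.1 CPM, and WNT16 had 1.38 CPM (0.167 to 4.97) in straight and 0.932 CPM (0.0236 to 5.19) in curly gated cells, against 14.7 and 13.6 CPM. WNT6 had 2.06 CPM (0.425 to 6.03) in straight and 6.52 CPM (2.62 to 13.4) in curly gated cells, against 7.59 and 20.7 CPM. All 4 rest on few UMIs in gated cells, at most 11 per library. WNT10A was the fifth tested ligand, with 36.4 CPM (27.3 to 47.7) in straight and 23.3 CPM (15.1 to 34.4) in curly gated cells and 33.5 and 45.2 CPM in KRT15-low basal cells. Summed over the 11 ligands in the table, gated cells had 62.6 and 41.9 CPM, KRT15-low basal cells 121 and 157 CPM, and LGR5-positive counterparts 44.9 and 35.4 CPM, where 0 of 1 tested ligand was called.

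Of 18 listed receptors, 10 were tested against KRT15-low basal cells, and 3 were called higher and 0 lower, where 3.13% of all tested genes were called higher. The Frizzled receptor FZD7 had 157 CPM (138 to 179) in straight and 111 CPM (91.9 to 133) in curly gated cells, against 43.1 and 45.7 CPM in straight and curly KRT15-low basal cells. FZD1, another Frizzled, had 50.2 CPM (39.3 to 63.1) in straight and 69.9 CPM (55 to 87.6) in curly gated cells, against 5.36 and 11.7 CPM, and the co-receptor LRP6 had 49.5 CPM (38.7 to 62.3) in straight and 48.5 CPM (36.2 to 63.5) in curly gated cells, against 13.6 and 12.5 CPM. Against LGR5-positive counterparts 0 of 8 tested receptors were called. LGR4, the LGR5 paralog that also binds R-spondins, had 40.6 CPM (30.9 to 52.3) in straight and 42.9 CPM (31.4 to 57.2) in curly gated cells and 46 and 33.1 CPM in LGR5-positive cells, and both intervals of its ratio include 0.

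The WNT targets CCND1 and MYC were lower than in KRT15-low basal cells. AXIN2, a feedback inhibitor that WNT signals induce, had 5 and 5 UMIs in straight and curly gated cells, and LEF1, a nuclear effector, had 5 and 7 UMIs. CTNNB1, which encodes beta-catenin, differed little, with 213 CPM (190.1 to 238) in straight and 186 CPM (161 to 213) in curly gated cells and 238 and 174 CPM in straight and curly KRT15-low basal cells. CCND1, a D cyclin of the G1 phase, had 99.7 CPM (84.1 to 117) in straight and 62.4 CPM (48.4 to 79.3) in curly gated cells, against 215 and 285 CPM, and MYC, a factor of growth, had 133 CPM (115 to 154) in straight and 70.8 CPM (55.8 to 88.7) in curly gated cells, against 309 and 224 CPM. Both were called lower, as 2 of 3 tested members of 9 listed, where 3.9% of all tested genes were called lower. In straight cells 22.1% of the CCND1 UMIs came from 1 gated cell, without which the log2 ratio was -1.45.

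The BMP list showed 3 genes called higher and 1 called lower than in KRT15-low basal cells among 12 tested of 22. Over all tested genes the shares were 3.13% higher and 3.9% lower. BMP4, a ligand, had 24.8 CPM (17.3 to 34.3) in straight and 24.2 CPM (15.8 to 35.5) in curly gated cells, against 9.37 and 9.53 CPM in straight and curly KRT15-low basal cells. ID4, a helix-loop-helix inhibitor that BMP signals induce, had 52.9 CPM (41.8 to 66.2) in straight and 61.5 CPM (47.6 to 78.2) in curly gated cells, against 17.9 and 29.7 CPM, and FSTL1, a secreted BMP antagonist, had 37.1 CPM (27.9 to 48.4) in straight and 27 CPM (18.1 to 38.8) in curly gated cells, against 8.93 and 13.1 CPM. The curly log2 ratio of FSTL1 was 1.05, and it was 0.79 without 1 gated cell. BMP7 was the gene called lower, on 4 and 3 UMIs in gated cells. ID1, the most counted target of BMP signals on the list, had 1399 CPM (1339 to 1461) in straight and 1438 CPM (1367 to 1512) in curly gated cells and 1110.2 and 996 CPM in KRT15-low basal cells, below the 2-fold limit. Against LGR5-positive counterparts 0 of 7 tested members were called, and the median log2 ratio was -0.29 in straight and 0.77 in curly cells. The libraries differed for ID3, another BMP target, at -0.30 (-0.50 to -0.09) in straight and 1.02 (0.77 to 1.27) in curly.

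Basal genes gave 1 call. KRT5 had 11753 CPM (11577 to 11930.4) in straight and 12522 CPM (12311 to 12735) in curly gated cells and 13647 and 14041 CPM in straight and curly KRT15-low basal cells. KRT14 was at 10619 and 10839.5 CPM in gated cells, and KRT15-low basal cells, which were chosen for it, are no comparison. Of 14 tested genes of basal keratins and hemidesmosomes, 1 was called higher, DST, a linker of keratin to hemidesmosomes, with 141 CPM (122 to 162) in straight and 137 CPM (116 to 161) in curly gated cells and 65.8 and 51.2 CPM. Against LGR5-positive counterparts 0 of 13 were called, with medians of 0.02 and -0.01. Suprabasal genes were lower than in KRT15-low basal cells for 3 of 7 tested members. Of all genes tested against KRT15-low basal cells, 3.13% were called higher and 3.9% lower. KRT10, a keratin of the spinous layer, had 316 CPM (287 to 346) in straight and 424 CPM (386 to 465) in curly gated cells, against 948 and 984 CPM, and 1 cell held 32.5% of the straight and 31.0% of the curly UMIs. LY6D, a surface protein of squamous cells, had 148 CPM (129 to 169) in straight and 282 CPM (252 to 316) in curly gated cells, against 641 and 1621 CPM. The third, KRT2, rested on 1 and 6 UMIs in gated cells. KRT79, a keratin of the upper follicle, was lower too, with 11 CPM (6.29 to 17.9) in straight and 23.3 CPM (15.1 to 34.4) in curly gated cells and 135 and 248 CPM.

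Genes of the cell cycle separated the gated from the KRT15-low basal cells. Of 16 genes of S phase and mitosis, all tested, 11 were called lower and 0 higher, where 3.9% of all tested genes were called lower. Their median log2 ratio was -1.45 in straight and -2.14 in curly cells. Against KRT15-high cells outside the gate, 0 of 12 tested were called. TOP2A, a topoisomerase of dividing cells, had 37.1 CPM (27.9 to 48.4) in straight and 4.66 CPM (1.51 to 10.9) in curly gated cells, against 103 and 45.2 CPM in straight and curly KRT15-low basal cells, and CENPF, a kinetochore protein, had 22 CPM (15.1 to 31.1) in straight and 4.66 CPM (1.51 to 10.9) in curly gated cells, against 134 and 32.7 CPM. The straight value came from few cells. Cells with at least 5 UMIs over 9 mitosis genes were 5 of 156 straight gated cells (3.21%, 1.05 to 7.32) and held 86.8% of the mitosis UMIs of the group, and 1 of 156 curly cells (0.641%, 0.0162 to 3.52). Among KRT15-low basal cells they were 17.1% (13.9 to 20.7) in straight and 5.39% (3.69 to 7.57) in curly skin, and among LGR5-positive counterparts 0 of 118 and 0 of 259, with exact intervals up to 3.08% and 1.41%. KRT15-high cells outside the gate were near the gated cells, at 3.2% in straight and 1.13% in curly skin. Without such cells in any group, some curly calls over KRT15-low basal cells ended. The log2 ratios were then -0.06 for CCNB1, -0.26 for CDC20, -0.16 for UBE2C, 0.45 for CCNB2 and 0.13 for CENPF. PCNA, the polymerase clamp of S phase, was among the 5 genes not called, with 147 CPM (128 to 168) in straight and 102 CPM (83.4 to 122) in curly gated cells and 225 and 253 CPM in KRT15-low basal cells. Of the CDK inhibitors, CDKN1C, known from resting cells, had 76.3 CPM (62.8 to 91.9) in straight and 160.3 CPM (137 to 186) in curly gated cells and 48.4 and 56.9 CPM, and was past 2-fold in curly cells alone, at 0.66 (0.31 to 0.99) in straight and 1.49 (1.19 to 1.79) in curly.

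Growth factors gave calls in both directions. IGFBP3, which binds insulin-like growth factors, had 908 CPM (859 to 958) in straight and 408 CPM (371 to 448) in curly gated cells, against 270.1 and 177 CPM in straight and curly KRT15-low basal cells and 254 and 122 CPM in LGR5-positive counterparts, and was called higher than both. Its level in all other cells, 926 and 355 CPM, includes dermal papilla cells. MET, the receptor of hepatocyte growth factor, had 20.6 CPM (13.9 to 29.4) in straight and 25.2 CPM (16.6 to 36.6) in curly gated cells, against 6.92 and 7.62 CPM. IGFBP2, IGFBP6 and TGFA were called lower than in KRT15-low basal cells, and rested on 5 and 3 UMIs, 4 and 3 UMIs and 1 and 5 UMIs in gated cells. Of 8 tested hedgehog and NOTCH genes, HEY1, a NOTCH target, was the 1 called, with 41.2 CPM (31.5 to 53.1) in straight and 20.5 CPM (12.8 to 31) in curly gated cells and 9.15 and 7.9 CPM. Of 5 tested nuclear hormone receptors 1 was called, the orphan receptor RORA, which was lower on 3 and 3 UMIs. Of 8 tested TGF beta pathway genes 0 were called. Over all genes tested against KRT15-low basal cells, 3.13% were called higher and 3.9% lower.

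Of the 10 genes highest over KRT15-low basal cells in both libraries, 3 were locus symbols without a name, 1 of them first with a log2 ratio of at least 4.46 in either library, and the named ones were GEM, WIF1, BNC2, DKK3, FEZ1, PHYHIP and CREB5. BNC2, a zinc finger protein, had 33.7 CPM (24.9 to 44.5) in straight and 39.1 CPM (28.2 to 52.9) in curly gated cells, against 4.69 and 5.17 CPM in straight and curly KRT15-low basal cells, and CREB5, a transcription factor of the ATF family, had 76.3 CPM (62.8 to 91.9) in straight and 51.3 CPM (38.6 to 66.7) in curly gated cells, against 5.8 and 8.17 CPM. FEZ1, an adaptor for kinesin transport, had 30.2 CPM (22 to 40.6) in straight and 51.3 CPM (38.6 to 66.7) in curly gated cells, against 2.01 and 7.35 CPM, and PHYHIP had 30.2 CPM (22 to 40.6) in straight and 41.9 CPM (30.6 to 56.1) in curly gated cells, against 4.02 and 6.53 CPM. At the other end stood FGFBP1, a carrier that releases fibroblast growth factors from the matrix, with 13.8 CPM (8.4 to 21.2) in straight and 0.932 CPM (0.0236 to 5.19) in curly gated cells, against 231 and 206 CPM. TPPP3, a protein that promotes tubulin polymerization, had 8.25 CPM (4.26 to 14.4) in straight and 7.46 CPM (3.22 to 14.7) in curly gated cells, against 61.2 and 62.9 CPM. ACSL6, a fatty acid ligase, had 2.06 CPM (0.425 to 6.03) in straight and 1.86 CPM (0.226 to 6.73) in curly gated cells, against 14.9 and 19.3 CPM, while DRC1 and CLSTN3 rested on 1 and 0 UMIs and 1 and 2 UMIs in gated cells. The KRT15-low basal group itself differed between the libraries in ACTA2, ACTG2 and MYH11. ACTA2, the smooth muscle actin, had 36.4 and 426 CPM in straight and curly KRT15-low basal cells and 6.19 and 9.32 CPM in gated cells. ACTG2 and MYH11 had 24.8 and 424 CPM and 11.8 and 107 CPM in straight and curly KRT15-low basal cells. Their part in the basal comparison was not tested.

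KRT15-high cells outside the gate shared several of these differences with KRT15-low basal cells. Against them, 98 of 6555 tested genes were called higher (1.5%) and 145 lower (2.21%). FZD1, FZD7, DKK3, WIF1, TBX1, BMP4, FSTL1 and HEY1 were called higher, and WNT3, WNT4, WNT16, APCDD1, DKK1 and CCND1 lower, each in the same direction as against KRT15-low basal cells. TBX1, a T-box factor of bulge cells, had 22.7 CPM (15.6 to 31.9) in straight and 23.3 CPM (15.1 to 34.4) in curly gated cells, against 10.3 and 10.2 CPM. KRT10 had 798 and 979.6 CPM and LY6D had 435 and 1040.0 CPM outside the gate, both called lower in gated cells. The levels outside the gate were nearer to the gated cells for POSTN, with 1476 and 1058 CPM, and for KRT5, with 11400.5 and 13012 CPM.

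The contrast with LGR5-positive counterparts asks what, beyond LGR5, differs between the gated cells and their closest kin by rule. Here 37 of 4364 tested genes were called higher in gated cells (0.848%) and 25 lower (0.573%). The highest named genes were PTHLH, THBS2, RASSF6, PLA2G7, LY6D, RCAN1 and IGFBP3, and 3 more among the first 10 had a locus symbol without a name. PTHLH, a secreted hormone-like peptide of keratinocytes, had 61.2 CPM (49.1 to 75.3) in straight and 21.4 CPM (13.6 to 32.2) in curly gated cells, against 2.25 and 0.58 CPM in straight and curly LGR5-positive cells, the latter from 1 UMI. RASSF6, of the Ras association family, had 57.1 CPM (45.5 to 70.7) in straight and 34.5 CPM (24.3 to 47.5) in curly gated cells, against 10.1 and 6.96 CPM. RCAN1, an inhibitor of calcineurin, had 88 CPM (73.4 to 105) in straight and 62.4 CPM (48.4 to 79.3) in curly gated cells, against 25.8 and 8.12 CPM, and PLA2G7, a secreted phospholipase, had 39.2 CPM (29.7 to 50.8) in straight and 23.3 CPM (15.1 to 34.4) in curly gated cells, against 8.98 and 5.8 CPM. LY6D stood at 148 and 282 CPM in gated and 37.1 and 47 CPM in LGR5-positive cells. The EGF receptor ligands AREG and HBEGF were called as well, AREG with 100.4 CPM (84.8 to 118) in straight and 33.5 CPM (23.5 to 46.5) in curly gated cells and 16.9 and 14.5 CPM, and HBEGF with 121 CPM (104 to 140.3) in straight and 65.2 CPM (50.9 to 82.4) in curly gated cells and 55 and 16.8 CPM. The curly log2 ratio of AREG was 1.21, and without 1 gated cell it was 0.82, below 2-fold.

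THBS2, a matricellular glycoprotein, had 77.7 CPM (64 to 93.4) in straight and 26.1 CPM (17.3 to 37.7) in curly gated cells, against 10.1 and 1.16 CPM in straight and curly LGR5-positive cells. In curly skin every one of its 28 UMIs came from cells whose neighbours were mostly neither gated nor LGR5-positive, a division that is described below. KRT1, a suprabasal keratin, was called higher with 194 CPM (172 to 218) in straight and 169 CPM (145 to 195) in curly gated cells against 68.5 and 81.2 CPM, but 36.5% of the straight UMIs came from 1 cell, without which the straight log2 ratio was 0.86 in place of 1.5. S100A4, a calcium-binding protein of mobile cells, was called higher with 219 CPM (195 to 244) in straight and 28.9 CPM (19.6 to 41) in curly gated cells against 57.3 and 11.6 CPM. In straight skin its log2 ratio was -0.04 without the gated cells that had at least 2 UMIs of markers of other cell types, and in curly skin 0.90 without 1 gated cell.

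Genes lower than in LGR5-positive cells included KRT19, KIAA1671, AEBP1, FBLN2, SHISA2, ARL15, COL5A2 and IL11RA. KRT19, a keratin of simple epithelia and of bulge cells, had 77 CPM (63.4 to 92.7) in straight and 163 CPM (139.8 to 189) in curly gated cells, against 277 and 647 CPM in straight and curly LGR5-positive cells. SHISA2, which retains WNT and FGF receptors inside the cell, had 7.56 CPM (3.77 to 13.5) in straight and 34.5 CPM (24.3 to 47.5) in curly gated cells, against 75.2 and 89.3 CPM. COL5A2, a chain of collagen V, had 48.8 CPM (38.1 to 61.6) in straight and 48.5 CPM (36.2 to 63.5) in curly gated cells, against 120.2 and 121 CPM, and FBLN2, a matrix protein, had 11.7 CPM (6.81 to 18.7) in straight and 10.2 CPM (5.12 to 18.3) in curly gated cells, against 32.6 and 26.7 CPM. AEBP1, another protein of the matrix, had 12.4 CPM (7.33 to 19.6) in straight and 23.3 CPM (15.1 to 34.4) in curly gated cells, against 43.8 and 65 CPM. ARL15, a small GTPase, had 20.6 CPM (13.9 to 29.4) in straight and 49.4 CPM (37 to 64.6) in curly gated cells, against 73 and 122 CPM. KIAA1671 had 14.4 CPM (8.94 to 22.1) in straight and 11.2 CPM (5.78 to 19.5) in curly gated cells, against 49.4 and 31.9 CPM, and IL11RA, the interleukin 11 receptor, had 8.25 CPM (4.26 to 14.4) in straight and 12.1 CPM (6.45 to 20.7) in curly gated cells, against 20.2 and 37.7 CPM. IGFBP5 was the growth factor gene called lower, with 41.9 CPM (32.1 to 53.9) in straight and 70.8 CPM (55.8 to 88.7) in curly gated cells and 99.96 and 150.2 CPM. For several of them the LGR5-positive level was also above that of KRT15-low basal cells, such as COL5A2 with 19.6 and 15.2 CPM, and the gated level lay between.

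**Figure D2:**
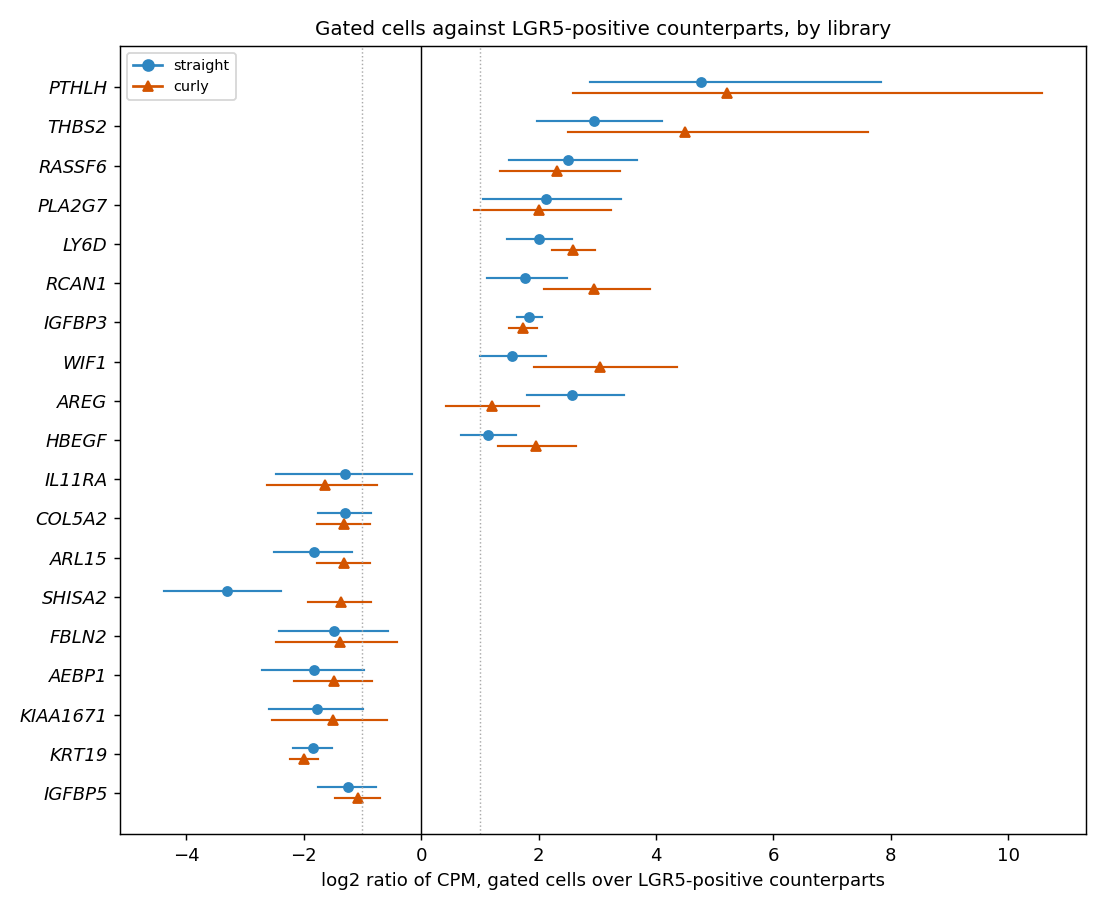
Log2 ratio of CPM, gated cells over LGR5-positive counterparts, for 19 genes called in both libraries, with circles for straight and triangles for curly and 95% binomial intervals for counting error. Dotted lines mark the 2-fold limits. PTHLH has the highest straight ratio at 4.77, and SHISA2 the lowest at -3.31, while KRT19 lies near the same place in both libraries at -1.85 and -1.99.

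Genes of early response to dissociation gave 1 call against LGR5-positive counterparts, where 0.848% of all tested genes were called higher and 0.573% lower. Of 20 tested of 22 listed, 1 was called, SOCS3, an inhibitor of cytokine signalling, with 142 CPM (123 to 162) in straight and 99.7 CPM (81.7 to 120.5) in curly gated cells and 68.5 and 33.1 CPM. Its straight log2 ratio was 1.05, and 0.89 without 1 gated cell. The median log2 ratio of the list was 0.44 in straight and 0.87 in curly cells, beside -0.03 and 0.00 over all tested genes. FOS, an immediate early gene, had 2640.0 CPM (2557 to 2725) in straight and 3101 CPM (2996 to 3208) in curly gated cells and 2182 and 2198 CPM. RCAN1, AREG, HBEGF and PTHLH lie in the same comparison, and the part of this response in their levels was not tested.

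The gated cells were close to LGR5-positive cells over the rest of the transcriptome as well. Each cell was set among its 30 nearest cells of the same library, in 30 principal components of 2000 variable genes without the gate genes. Of the neighbours of straight gated cells, 32.4% were gated, 21.6% LGR5-positive, 18.3% KRT15-high outside the gate and 2.76% KRT15-low basal, where these groups made up 2.42%, 1.83%, 9.69% and 7.80% of the library. In curly skin, 18.1% were gated, 29.9% LGR5-positive, 14.4% KRT15-high outside and 3.35% KRT15-low basal, where the groups made up 2.06%, 3.42%, 5.84% and 7.58%. Neighbours outside all of these groups were 24.9% in straight and 34.3% in curly skin. Since gated and LGR5-positive cells were chosen on genes that covary with others, these shares describe the gate and have no test.

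**Figure D3:**
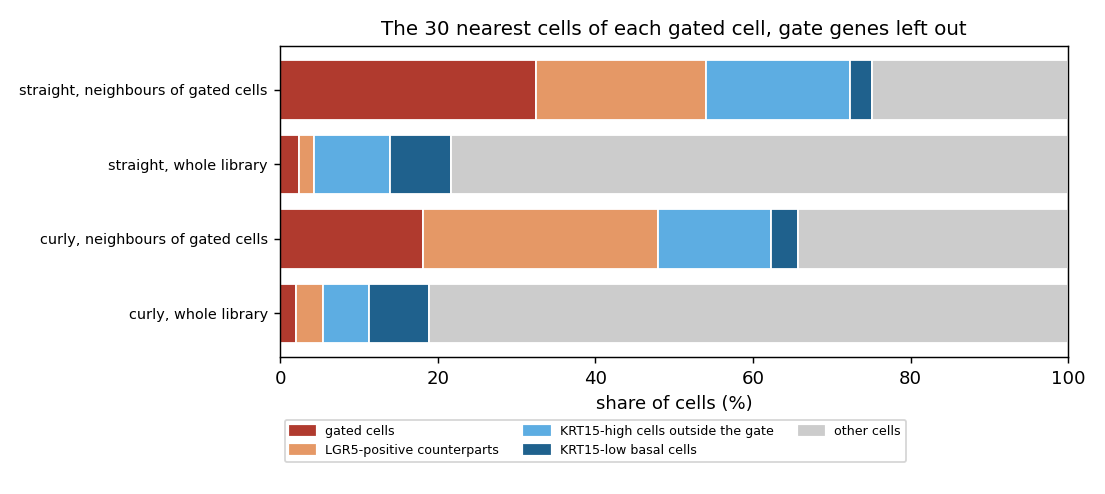
Share (%) of gated, LGR5-positive, KRT15-high outside, KRT15-low basal and other cells among the 30 nearest cells of each gated cell, above the share of the same groups in the whole library, for straight and curly skin. Gated and LGR5-positive cells together fill about as much of the neighbourhood as the remaining groups, though they are a thin slice of either library.

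A minority of gated cells lay elsewhere. At least 15 of the 30 nearest cells were gated or LGR5-positive for 110 straight (70.5%) and 96 curly (61.5%) gated cells, and fewer than 15 for the other 46 and 60. Fewer than 3 such neighbours were found for 20 straight (12.8%) and 15 curly (9.62%) cells. This division was made after the data had been seen. It drew on the expression of variable genes other than the gate genes, so differences between the parts describe the division and are no test of it. In the larger part, GEM lay at 160.3 CPM (137 to 187) in straight and 212 CPM (179 to 250.3) in curly cells, and in the smaller at 48.6 and 191 CPM. SOX9 was at 380.3 CPM (344 to 420.1) in straight and 441 CPM (392 to 494) in curly cells against 248 and 345 CPM, DKK3 at 66.5 CPM (51.6 to 84.3) in straight and 132 CPM (106 to 163) in curly cells against 34.8 and 90.5 CPM, and KRT19 at 96.8 CPM (78.7 to 118) in straight and 199 CPM (166 to 236) in curly cells against 30.1 and 105 CPM. The simple keratin KRT8 was at 138 CPM (116 to 163) in straight and 375 CPM (329.7 to 424) in curly cells against 53.3 and 220.2 CPM.

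The smaller part carried more of several genes listed above as higher than in LGR5-positive cells. PTHLH was at 22.5 CPM (14.2 to 33.7) in straight and 3.01 CPM (0.365 to 10.9) in curly cells against 153 and 51.4 CPM in straight and curly cells of the smaller part, where the curly value of the larger part rests on 2 UMIs, and LY6D at 90.9 CPM (73.4 to 111) in straight and 105 CPM (82.1 to 133) in curly cells against 283 and 570.2 CPM. KRT1 was at 73.3 CPM (57.7 to 91.9) in straight and 85.8 CPM (65 to 111) in curly cells against 479.5 and 304 CPM, and KRT10 at 176 CPM (151 to 204) in straight and 247 CPM (210.5 to 288) in curly cells against 646 and 712 CPM. VIM, an intermediate filament of dermal cells, was at 114 CPM (94.6 to 137) in straight and 28.6 CPM (17.2 to 44.7) in curly cells against 250.2 and 169 CPM. CXCL14 was alike in both, at 8238 CPM (8063 to 8416) in straight and 2778 CPM (2653 to 2908) in curly cells against 7957 and 3343 CPM. IGFBP3 was alike in straight but not in curly skin, at 933 CPM (874 to 994) in straight and 253 CPM (216 to 294) in curly cells against 848 and 661 CPM. With the larger part alone, several calls ended, while the comparison groups were kept whole. Keeping gated cells for their gated or LGR5-positive neighbours by itself brings them nearer to LGR5-positive cells, so these changes are no test. Over LGR5-positive cells the KRT1 log2 ratios were 0.10 in straight and 0.08 in curly skin, THBS2 had -0.95, AREG 0.43, S100A4 0.75 and IGFBP5 -0.94 in curly skin, and SOCS3 had 0.26 in straight skin. IGFBP3 was at 1.05 over LGR5-positive cells in curly skin, but at 0.52 over KRT15-low basal cells, below 2-fold. Over KRT15-low basal cells, NFATC1 had 0.88 and FSTL1 0.34 in curly skin, POSTN had 0.97 and 0.87 in straight and curly skin, and PTHLH 0.68 and -1.39. PTHLH in curly skin was then left with 2 UMIs against 1 UMI in LGR5-positive cells, too few to compare.

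**Figure D4:**
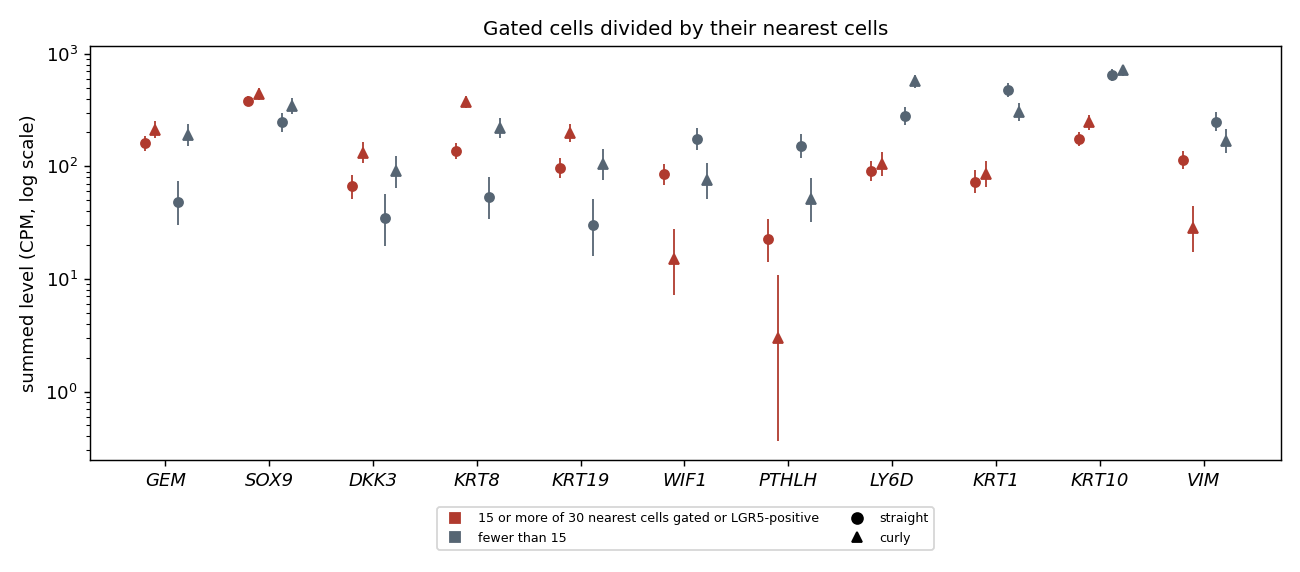
Summed level (CPM, log scale) of 11 genes in gated cells with at least 15 of 30 nearest cells gated or LGR5-positive (red) and with fewer than 15 (grey), with circles for straight and triangles for curly and 95% Poisson intervals. GEM, SOX9, DKK3, KRT8 and KRT19 are lower in the grey cells in both libraries, though the intervals of DKK3 overlap in both libraries and those of GEM and SOX9 in curly skin, and WIF1, PTHLH, LY6D, KRT1, KRT10 and VIM are higher.

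Markers of other cell types were counted in more of the straight than of the curly gated cells. At least 2 UMIs over the dermal, endothelial, immune and melanocyte lists were found in 72 of 156 straight (46.2%) and 24 of 156 curly (15.4%) gated cells, against 50.4% and 31.9% of all other cells and 34.75% and 12.4% of LGR5-positive counterparts. The shares were 24.96% and 15.35% in KRT15-high cells outside the gate and 26.8% and 19.3% in KRT15-low basal cells, so that straight gated cells lay above each of the 3 comparison groups. This limit of 2 UMIs was not adjusted for depth. Straight gated cells were also the deepest of these groups, with a median of 9422 UMIs against 7538 in LGR5-positive, 6490 in KRT15-high outside and 8749 in KRT15-low basal cells. The highest gated cell had 115 such UMIs in straight and 66 in curly skin. The 8 dermal genes summed to 306 CPM in straight and 174 CPM in curly gated cells, against 2188 and 1071 CPM in all other cells. They summed to 353 and 107 CPM in LGR5-positive, 249 and 214 CPM in KRT15-high outside and 251 and 310 CPM in KRT15-low basal cells. The 6 immune genes summed to 10.3 and 7.46 CPM in gated cells, against 64 and 21.5 CPM in LGR5-positive, 35.5 and 27.7 CPM in KRT15-high outside and 23 and 7.9 CPM in KRT15-low basal cells. In gated cells the 6 endothelial genes summed to 4.12 and 6.52 CPM, and the 3 melanocyte genes present in the table rested on 2 straight UMIs and 1 curly UMI. VIM had 155 CPM (135 to 176) in straight and 82 CPM (65.8 to 101) in curly gated cells, with 21.3% of the straight and 26.1% of the curly UMIs in 1 cell. KRT71, KRT25 and KRT27, keratins of the inner root sheath, had 54.3 and 179.9 CPM, 79.8 and 237 CPM and 14.4 and 86.7 CPM in straight and curly gated cells, and KRT71 was at like levels in LGR5-positive cells (71.9 and 172 CPM) and KRT15-low basal cells (56.9 and 227 CPM).

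Some calls ended when the gated cells with at least 2 such UMIs were left out, while the comparison groups were kept whole. Over KRT15-low basal cells, NFATC1 then had a log2 ratio of 0.07, MYC -0.96, CCND1 -0.89 and KRT10 -0.91 in straight skin, and POSTN had 0.94, FSTL1 0.30 and IGFBP3 0.80 in curly skin. Over LGR5-positive cells, RCAN1 had 0.69, HBEGF 0.84, WIF1 0.92, SOCS3 0.97 and COL5A2 -0.93, each in straight skin. Without cells of at least 5 mitosis UMIs in any group, BARX2 had 0.97 and TOP2A -0.71 over KRT15-low basal cells in straight skin. The part of other cell types or of doublets in these levels was not tested.

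The comparison of wool types within the gated cells rests on 1 library each. Of 2590 genes with at least 100 UMIs over the pair, 57 were at least 2-fold higher in curly (2.2%) and 71 at least 2-fold lower (2.74%). Over these genes the log2 ratio had a median of -0.09 (SD 0.76) in gated cells and -0.13 (SD 0.54) in all other cells. The stem cell factors gave 0 calls among 6 tested, WNT receptors 0 among 4, BMP genes 0 among 4 and the early response 0 among 20.

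Interferon response genes were far higher in the curly library, in gated cells as elsewhere. All 5 tested members of 17 listed were called higher, with a median log2 ratio of 5.16. IFI6, a mitochondrial protein induced by interferon, had 26.8 CPM (19.1 to 36.6) in straight and 12737 CPM (12524 to 12952) in curly gated cells, a log2 ratio of 8.89 (8.44 to 9.38), and in all other cells 74.7 and 3994 CPM in straight and curly skin, or 5.74 (5.70 to 5.79). In straight skin 24 of its 39 UMIs were in 1 gated cell, while the curly cells had a median of 129 CP10K. ISG15, a ubiquitin-like modifier, had 11 CPM (6.29 to 17.9) in straight and 392 CPM (356 to 432) in curly gated cells, and the antiviral GTPase MX1 2.06 CPM (0.425 to 6.03) in straight and 209.7 CPM (183 to 239) in curly gated cells. IRF7 and IRF9, transcription factors of the pathway, had 51.6 CPM (40.6 to 64.6) in straight and 104 CPM (85.9 to 126) in curly gated cells and 31.6 CPM (23.1 to 42.2) in straight and 128 CPM (107 to 151) in curly gated cells. The log2 ratio of IRF7 was 1.02, and 0.41 in gated cells with mostly gated or LGR5-positive neighbours. BST-2A, a membrane protein that holds back budding viruses, had 0.688 CPM (0.0174 to 3.83) in straight and 144 CPM (122 to 168) in curly gated cells. The shift reached every group compared, with IFI6 at 34.8 and 14508 CPM in LGR5-positive and 6.7 and 7485 CPM in KRT15-low basal cells, and whether it belongs to the wool type or to the lambs, handling or preparation of 1 pool cannot be told apart.

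Several follicle genes differed in the direction of the whole library. CXCL14 was lower in curly gated cells, with a log2 ratio of -1.45 (-1.5 to -1.39) beside -0.92 (-0.94 to -0.90) in all other cells, and IGFBP3 had -1.15 (-1.31 to -1.0) beside -1.38 (-1.41 to -1.36). FST, a secreted activin antagonist, had -1.36 (-1.71 to -1.03) beside -2.08 (-2.13 to -2.04), WIF1 -1.55 (-2.08 to -1.05) beside -2.88 (-2.95 to -2.82), and LTBP1, which binds latent TGF beta, -1.16 (-1.63 to -0.72) beside -1.46 (-1.54 to -1.38). TGFBI, a matrix protein that TGF beta induces, was at 80.4 CPM in the straight and 8.39 CPM in the curly gated cells, a log2 ratio of -3.26 (-4.43 to -2.29) beside -1.98 (-2.10 to -1.86). HIGD1A, a protein of mitochondria in low oxygen, had -2.60 (-3.39 to -1.89) beside -1.73 (-1.81 to -1.65). The inner root sheath keratins KRT71, KRT25 and KRT27 were higher in curly gated cells with 1.73 (1.34 to 2.12), 1.57 (1.25 to 1.90) and 2.59 (1.89 to 3.34), beside 1.78 (1.76 to 1.81), 1.61 (1.59 to 1.63) and 2.06 (2.01 to 2.10) in all other cells, a group that holds the inner root sheath itself.

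For other genes the values of gated and of all other cells stand side by side, and the difference between these groups was not tested. DKK3 was higher in curly gated cells with 1.03 (0.62 to 1.45) beside 0.73 (0.57 to 0.89), and CDKN1C with 1.07 (0.72 to 1.43) beside 0.08 (0.01 to 0.14). GEM did not pass 2-fold, with 0.68 (0.39 to 0.97), while all other cells had -1.01 (-1.11 to -0.91). PLAU, the urokinase that activates plasminogen, had -2.38 (-3.35 to -1.54) beside -0.56 (-0.62 to -0.50), and PHLDA1, a stem cell marker of several epithelia, -1.96 (-2.38 to -1.56) beside -0.76 (-0.79 to -0.72). FAM25A was lower in curly gated cells with -2.15 (-2.77 to -1.58) and higher in curly among all other cells with 0.92 (0.87 to 0.96), and the LGR5-positive counterparts had -1.72 (-2.16 to -1.30). CCND2, a D cyclin, had -1.11 (-1.60 to -0.63) beside -0.72 (-0.78 to -0.65). KRT8 and KRT19 were higher in curly gated cells with 1.49 (1.21 to 1.76) and 1.08 (0.73 to 1.44), beside 1.29 (1.22 to 1.36) and 0.86 (0.81 to 0.91), and their intervals overlap in gated and all other cells, as do those of DKK3 and CCND2. Without gated cells with at least 2 UMIs of other types' markers, KRT19 had 0.54 and CCND2 -0.86. DKK3 had 0.99 in gated cells with mostly gated or LGR5-positive neighbours, and CDKN1C 0.96 without cells of at least 5 mitosis UMIs.

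Some of the lowest curly ratios rest on single cells. SPP1, which encodes the secreted phosphoprotein osteopontin, was at 525 CPM in the straight and 19.6 CPM in the curly gated cells, but 80.5% of the 763 straight UMIs came from 1 cell. When the gated cell with most SPP1 UMIs was left out of each library, the log2 ratio of curly over straight went from -4.74 to -3.18. S100A4 had -2.92 (-3.50 to -2.39), with 22.6% of its straight UMIs in 1 cell, and -0.74 without gated cells with at least 2 UMIs of other types' markers. UBE2C, a ubiquitin ligase of mitosis, had -1.77 (-2.57 to -1.05), with 40.9% of its straight UMIs in 1 cell, and its log2 ratio was 0.26 without the cells that had at least 5 mitosis UMIs.

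**Figure D5:**
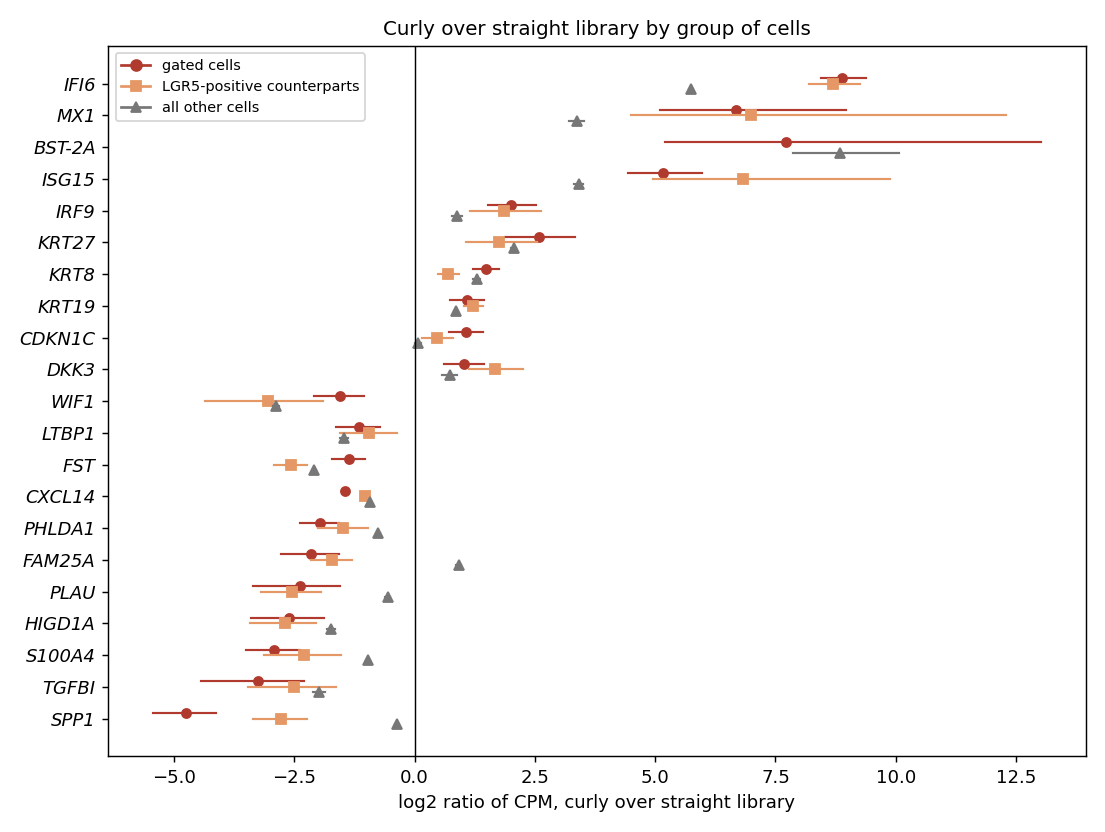
Log2 ratio of CPM, curly over straight library, for 21 genes in gated cells (circles), LGR5-positive counterparts (squares) and all other cells (triangles), with 95% binomial intervals for counting error and no test, since each wool type is 1 library. Groups without a UMI in 1 library have no point (BST-2A in LGR5-positive cells). IFI6, MX1, BST-2A, ISG15 and IRF9 are higher in curly in each group drawn, and FAM25A is lower in gated cells (-2.15) but higher in all other cells (0.92).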

How the data were processed

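Single-cell suspensions of skin from straight and curly (waved) wool lambs were sequenced as 1 pooled library each. The authors aligned reads and counted UMIs with Cell Ranger, for which the submitters' processing notes give version 3.0.2, and deposited 1 table of 18161 genes by 14037 cells on a natural log scale, ln(1 + UMIs per 10000 of the cell). Counts had been assumed in the planned design. UMIs were therefore calculated back from the deposited values, and 100% of 28552149 values above 0 came out whole within 0.01. The paper names an older Cell Ranger version and more cells than the table holds, so shares of a library refer to the cells of the table. The libraries held 57956122 and 77634565 UMIs and shared 70 barcodes.

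The members, comparison groups and 28 gene lists were chosen with earlier results of these data known. CPM were taken from UMIs summed over a group's cells, with exact Poisson intervals, and shares had exact Clopper-Pearson and log2 ratios exact binomial intervals, at 95%. Cells are not replicates and each wool type had 1 library, so no p-value was calculated. Genes of the rule were left out of calls. Genes named are the markers, list members and the 10 highest and 10 lowest genes of each comparison with at least 100 UMIs, and CCL20, ETS1, CH25H, MSLN and 2 locus symbols were added after their values had been seen. An item among the named genes is not reported here. Locus symbols were named from a RefSeq table where it gave a name. The loci of KRT15 and KRT14 had names set beforehand, that of KRT15 by the rule for the cells. No doublet caller was run, so cells with at least 2 UMIs of other cell types' markers were left out in 1 of 11 other settings, and 3 more settings were chosen after seeing the data. The ratio calculation was tested on simulated data. Intervals came from scipy 1.17.1, nearest cells from numpy 2.4.6 and plots from matplotlib 3.10.9, under Python 3.11.15 with pandas 2.3.3.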

Additional observations from a re-analysis of the deposited data

Results flagged for a closer look

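A few genes had opposite directions in the straight and curly libraries, each past 2-fold, and the difference between the libraries was not tested. They were picked out after their values had been seen. As log2 ratios of gated over LGR5-positive cells, CCL20, a chemokine, had -1.49 in straight and 1.01 in curly skin, where the gated level rests on 5 UMIs and the interval of the ratio includes 0. ETS1, a transcription factor, had -1.31 and 1.68. CH25H, a cholesterol hydroxylase, had 2.55 and -2.32, and 1 cell held 37.2% of its straight UMIs. MSLN, a surface glycoprotein, had 1.17 and -1.12, and 1 cell held 72.7% of its straight UMIs.

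The locus LOC101121216 had -3.52 in straight skin, a value that depends on the 0.5 UMI added because gated cells had 0 UMIs, and 4.21 in curly skin, where 98.3% of its 115 UMIs came from 1 cell. The locus LOC101114275 was higher in curly than in straight gated cells, with a log2 ratio of 1.05, and lower in all other cells, with -1.48.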

How the results depend on the processing

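Straight and curly libraries could not be paired, because each wool type had 1 library with no replicate number. Gated cells were compared with the other groups inside each library, so those ratios are matched by library. With 1 library per wool type, no replicate could be left out. Of 3626 recalculated values of single genes, 3122 stayed within their counting interval, 489 moved and 15 reversed. Settings that only lowered the minimum of UMIs per gene admit more genes and cannot change a ratio, so their values stayed by construction. Setting the median log2 ratio to 0 could shift ratios only slightly, as the median for curly over straight gated cells was -0.09. The 3122 therefore overstate how stable these values were. The rare genes, the single-cell sources and the depth of 1 library per wool type limit these values, and where a value or a count changed the cause was not tested.

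The gated share of the straight library was 3.084% with KRT15 at 25 CP10K or more, 1.24% at 100 CP10K or more, 0.5735% with all 3 genes, 2.952% among cells with at least 5000 UMIs, 1.302% without cells holding markers of other types and 1.705% with at least 15 gated or LGR5-positive neighbours. The curly share was 2.65%, 1.081% and 0.6196% under the first 3 of these, 1.74% without cells holding markers of other types and 1.266% with the neighbours.

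The 37 genes called higher than in LGR5-positive cells became 11 with all 3 genes, 18 without cells holding markers of other types, 57 in cells thinned to 3000 UMIs, 23 with the neighbours, and 157 and 423 among genes with at least 20 UMIs and 1 UMI. The 25 called lower became 11 with KRT15 at 100 CP10K, 7 with all 3 genes, 16 in cells with at least 5000 UMIs, 15 with the neighbours, and 98 and 291 at the lower UMI minimums. Against KRT15-low basal cells the 214 higher genes became 426 and 1172 at those minimums. The 266 lower became 626 and 841, and 411 with all 3 genes, 435 with the mean CP10K per cell and 403 with the neighbours. For curly over straight, the 57 higher became 25 with all 3 genes, 251 and 1810 at the minimums. The 71 lower became 37 with KRT15 at 100 CP10K, 18 with all 3 genes, 34 without cells holding markers of other types, 146 after thinning, 527 and 2846 at the minimums. Thinning left out cells under 3000 UMIs, 16 straight and 16 curly gated, 15 and 16 LGR5-positive and 113 and 227 KRT15-low basal cells.

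Against LGR5-positive cells the log2 ratio reversed to -0.34 for KRT1 in curly skin and to -0.78 for LOC101117955 in straight skin with all 3 genes, to -0.95 for THBS2 in curly skin with the neighbours, and to -0.04 for S100A4 in straight skin without cells holding markers of other types. Against KRT15-low basal cells it reversed to 0.27 for DKK1 in straight skin with KRT15 at 25 CP10K, to 0.45 for CCNB2 and 0.13 for CENPF in curly skin without cells of at least 5 mitosis UMIs, to 0.01 and 0.20 for ACTG2 in straight skin in cells with at least 5000 UMIs and after thinning, and to -1.39 for PTHLH in curly skin with the neighbours. For curly over straight it reversed for UBE2C to 1.32 with KRT15 at 100 CP10K, 1.29 with all 3 genes, 0.36 with the neighbours and 0.26 without cells of at least 5 mitosis UMIs, and for KRT19 to -0.41 with all 3 genes.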
